A study of Homo sapiens with 6 samples.

Results

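The genes described here are the Wnt ligands, Frizzled receptors and Wnt modulators as measured in Hs578T, a human breast tumour cell line with a mesenchymal look. They were chosen by gene symbol: families of Wnt ligands, Frizzled receptors, LRP and LGR co-receptors, R-spondins, secreted antagonists and intracellular or nuclear pathway proteins. 41 of the 14884 genes named on the array met this rule, after 2 antisense symbols were left out, and each was given by 1 probe set. WNT2 was the only ligand among them, so the set is mainly one of receptors and modulators. The Dishevelled genes, CTNNB1, the TCF7 family and the other WNT genes were not analysed here.

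Cells had been transfected with an siRNA against CSRP2 (siCSRP2, 3 arrays) or with a non-targeting siRNA (siControl, 3 arrays). CSRP2 encodes a LIM domain protein that binds actin filaments. All cells were grown in medium with 10% serum and 0.01 mg/ml insulin and were transfected with Lipofectamine. They were replated 24 h later, and total RNA was taken after a further 48 h and hybridised to Affymetrix HuGene 2.0 arrays. The labels do not say whether replicates came from separate cultures, so the spread behind each p-value is that of these arrays and may be purely technical. In bulk RNA, fewer cells that carry a transcript and less of it per cell cannot be told apart.

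Wnt proteins bind Frizzled receptors together with LRP5 or LRP6. In the canonical branch this stops the APC and AXIN complex from marking beta-catenin for destruction. Beta-catenin then acts with TCF and LEF factors in the nucleus, where full-length TLE proteins repress. R-spondins bind LGR receptors and keep RNF43 and ZNRF3, a pair of membrane ubiquitin ligases, from removing Frizzled receptors. FZD4 is also the receptor for Norrin, a secreted protein that is no Wnt, with LRP5 as co-receptor and TSPAN12 as a helper.

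Values are on a log2 scale, 1 per probe set and array, so a difference of 1 is a doubling. Array medians ran from 2.80 to 2.82 for siCSRP2 and from 2.70 to 2.76 for siControl, and no pair of arrays was a copy. The array siControl 3 stood between the groups: its mean correlation across genes was 0.966 with the siCSRP2 arrays and 0.967 with the other controls, which themselves correlated with the siCSRP2 arrays at 0.935. CSRP2, the target, measured 3.25, 3.76 and 4.26 on the siCSRP2 arrays, against 3.69, 4.01 and 4.35 on the siControl arrays. The groups overlapped, and the difference of -0.26 (SE 0.26, 95% interval -0.84 to 0.32) was short of the threshold (adjusted p = 0.583 in limma). CSRP2 was lower in all 3 pairs (-0.44, -0.24 and -0.09), and did not pass with replicate number as a block either (adjusted p = 0.188). With 1 array left out its difference ran from -0.51 (without siCSRP2 3) to -0.00514 (without siCSRP2 1), and it was -0.42 without siControl 1 and -0.092 without siControl 3. An exact two-sided permutation test gave p = 0.5, where 0.1 is the smallest that 3 against 3 can give. No fit called CSRP2, so it gives no firm check on the groups, and siCSRP2 stands throughout for the arrays that carry that label. Of the markers of the line, VIM, AXL, CD44 and FN1 lay between 6.21 and 11.2 on all arrays and TWIST1 between 3.09 and 3.61. ESR1, PGR and KRT19 lay at 2.28 to 2.94, GATA3, KRT8 and EPCAM at 2.91 to 4.22, and the luminal keratin KRT18 at 7.19 to 8.39. The endothelial genes PECAM1 and VWF lay at 2.34 to 2.69, and the 3 blood cell markers listed were not analysed here.

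Of the 41 Wnt pathway genes, 1 rose, 4 fell and 36 did not pass the test in siCSRP2. FZD4, a Frizzled receptor, was 2.91-fold higher. LGR4, a receptor for R-spondins, was 1.99-fold lower, the co-receptor LRP5 1.9-fold lower and the receptor FZD1 1.81-fold lower. TLE5, a short Groucho family member, was 1.58-fold lower. The test was limma's moderated test over all 14884 genes, with Benjamini-Hochberg adjustment and a threshold of 0.05, by which 0.8% of all genes rose and 6.54% fell. The Wnt genes had shares of 2.44% and 9.76%, which come from 1 and 4 genes. At an unadjusted p under 0.05, 4 of the Wnt genes were higher and 7 lower, as were 6.32% and 17.4% of all genes (23.7% in either direction). The falls made up 89.1% of all genes that passed, a share that became 76.0% with quantile normalization, 77.7% with cyclic loess and 94.5% with median centring. The median difference of the 41 genes was 0.02, as it was over all genes (0.02). The groups did not overlap for 6 Wnt genes that were higher (14.6%, against 11.5% of all genes) and 9 that were lower (22%, against 16.2%).

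**Figure D1:**
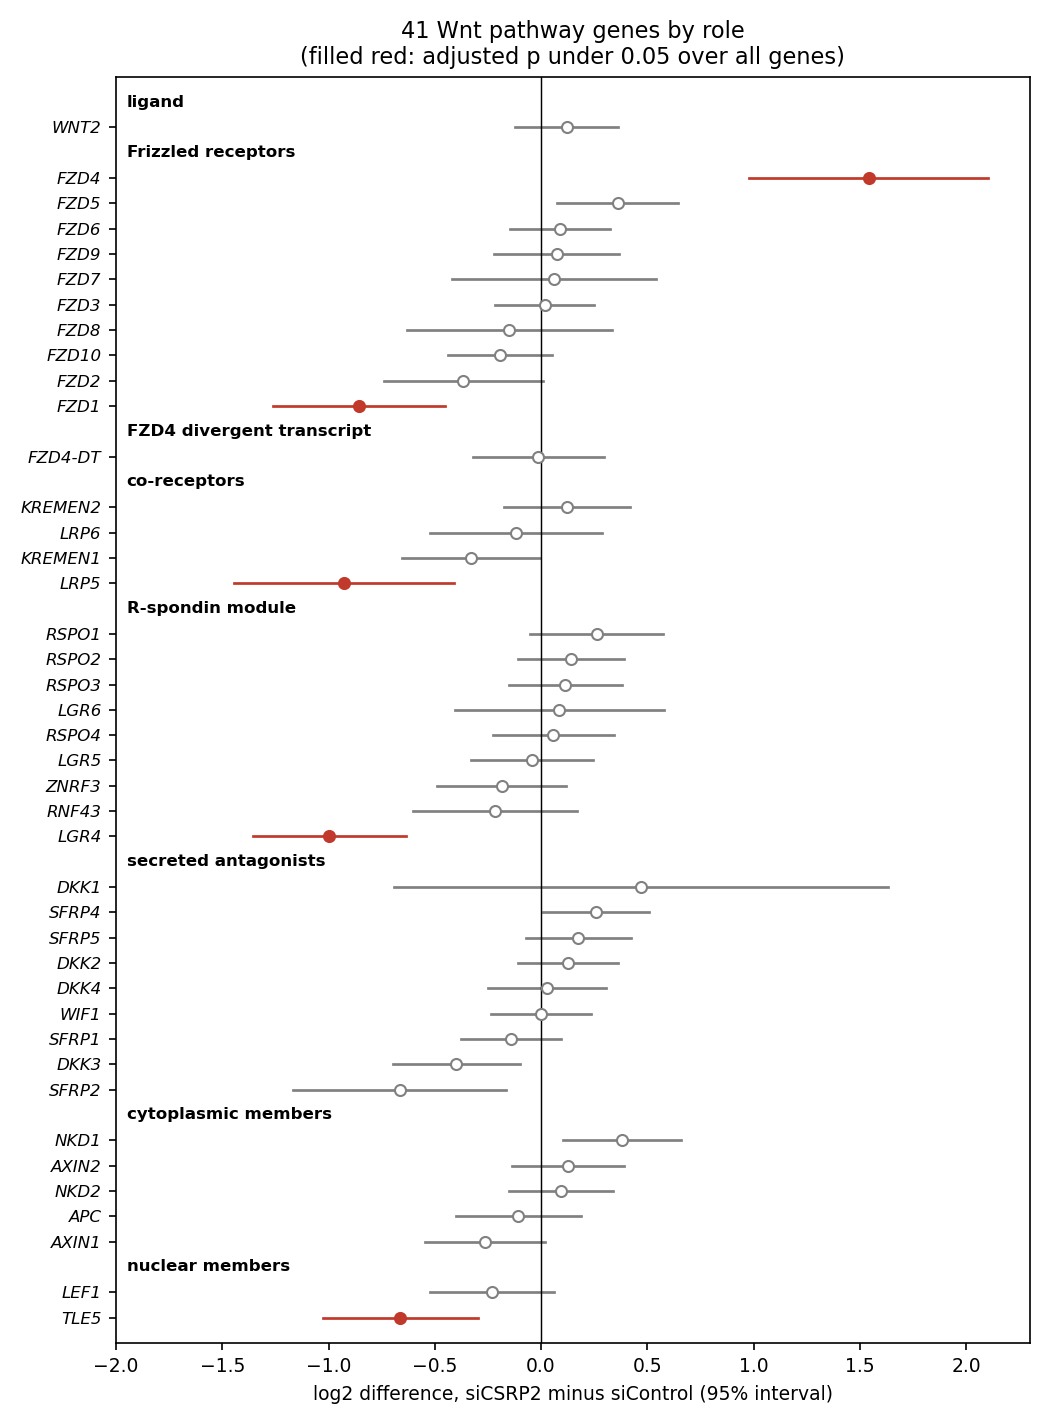
Difference of siCSRP2 minus siControl on the log2 scale (horizontal axis) for the 41 Wnt pathway genes, grouped by role. Points are differences, lines are 95% intervals, and filled red points passed the test over all genes. FZD4 stands alone at the right with 1.54, and FZD1, LRP5, LGR4 and TLE5 lie at the left between -0.996 and -0.66.

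The sequences upstream of the 4 receptor and co-receptor genes that passed are shown because 1 of them rose and 3 fell. Each is the run of 250 bases just before the transcription start, read 5′ to 3′ on the gene's strand, from RefSeq (GRCh38.p14). Capitals mark the letters GGGCGG (the GC box) or CCAAT (the CCAAT box) on either strand, with overlapping matches joined.
FZD4, chr11:86955396-86955645, minus strand: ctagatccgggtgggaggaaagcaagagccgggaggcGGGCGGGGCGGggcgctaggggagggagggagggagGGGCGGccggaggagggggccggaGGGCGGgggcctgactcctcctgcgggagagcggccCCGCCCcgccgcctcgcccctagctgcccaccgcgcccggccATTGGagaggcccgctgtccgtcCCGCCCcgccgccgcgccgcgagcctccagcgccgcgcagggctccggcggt
LRP5, chr11:68312341-68312590, plus strand: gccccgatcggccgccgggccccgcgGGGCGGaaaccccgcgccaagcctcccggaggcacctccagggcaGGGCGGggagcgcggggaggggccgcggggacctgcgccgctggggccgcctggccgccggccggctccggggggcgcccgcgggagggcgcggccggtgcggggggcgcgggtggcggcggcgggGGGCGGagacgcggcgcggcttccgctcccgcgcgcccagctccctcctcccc
LGR4, chr11:27472791-27473040, minus strand: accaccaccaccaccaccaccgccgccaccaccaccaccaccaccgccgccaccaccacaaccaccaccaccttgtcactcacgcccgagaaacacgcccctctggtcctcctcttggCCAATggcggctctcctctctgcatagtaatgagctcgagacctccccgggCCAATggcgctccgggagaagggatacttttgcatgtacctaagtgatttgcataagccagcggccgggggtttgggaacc
FZD1, chr7:91264183-91264432, plus strand: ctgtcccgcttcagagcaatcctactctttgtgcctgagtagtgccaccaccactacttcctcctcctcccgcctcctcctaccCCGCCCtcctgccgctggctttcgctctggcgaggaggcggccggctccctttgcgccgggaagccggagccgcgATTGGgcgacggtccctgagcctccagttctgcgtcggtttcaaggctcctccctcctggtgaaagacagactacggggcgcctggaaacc

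FZD4 had 6 GC boxes and 1 CCAAT box in this window, LRP5 had 3 and 0, LGR4 had 0 and 2, and FZD1 had 1 of each. G and C made up 80.8% of the FZD4 window, 87.2% of that of LRP5, 62.0% of that of LGR4 and 65.2% of that of FZD1, against a median of 58% over 35116 windows of the same length. A GC box was found in 42.6% of all these windows and a CCAAT box in 32%. The core of the TCF and LEF motif, CTTTGA, was searched on both strands and found in 11.2% of windows, and the TATA box, TATAAA, in 10.7%. Neither was found in these 4 windows. TLE5 has windows for 2 starts, and that of the second held 1 CTTTGA. A match or its lack says only which letters stand there. RefSeq windows were at hand for 24 of the 41 genes.

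FZD4 was the Frizzled receptor that rose. It measured 5.84, 6.68 and 6.85 on siCSRP2 arrays 1, 2 and 3, against 4.67, 5.0 and 5.07 on siControl arrays 1, 2 and 3. All siCSRP2 arrays lay above all siControl arrays, and in both groups array 1 was the lowest. Within pairs of equal replicate number the difference was 1.17, 1.68 and 1.78. The group means were 6.46 ± 0.54 and 4.91 ± 0.21 (SD, n = 3 each), a difference of 1.54 (SE 0.25, 95% interval 0.98 to 2.11, limma adjusted p = 0.0127). The difference lay between 1.35 and 1.85 with any 1 array left out. It no longer passed without siCSRP2 2 (adjusted p = 0.062), siControl 1 (0.0568) or siControl 2 (0.066). FZD4-DT, a non-coding transcript that starts beside FZD4 and runs the other way, measured 2.32, 2.07 and 1.85 on siCSRP2 arrays, against 2.12, 2.05 and 2.10 on siControl arrays. The groups overlapped. It did not pass (difference -0.01, adjusted p = 0.967). Its mean over the 6 arrays was 2.08, at percentile 1.11 of all gene means. A change in a transcript this dim can be understated.

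FZD1, a receptor for canonical Wnt signals, was the Frizzled receptor that fell. It measured 4.09, 3.91 and 3.92 on siCSRP2 arrays, against 4.92, 5.14 and 4.43 on siControl arrays. The groups did not overlap, and siControl 3 was the control nearest to the siCSRP2 arrays. The difference was -0.86 (SE 0.18, adjusted p = 0.0268), and it was -1.06 without siControl 3 (adjusted p = 0.00117). The fall did not pass without siCSRP2 2 (0.104), siCSRP2 3 (0.101), siControl 1 (0.106) or siControl 2 (0.11).

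The other 8 Frizzled receptors did not pass, though 1 (FZD5) had an unadjusted p under 0.05, with differences from -0.37 (FZD2) to 0.36 (FZD5). FZD5 measured 3.13, 3.22 and 3.44 on siCSRP2 arrays, against 2.82, 3.04 and 2.84 on siControl arrays. Its groups did not overlap, yet the adjusted p was 0.118. FZD2 measured 2.55, 2.13 and 2.33 on siCSRP2 arrays, against 2.80, 2.90 and 2.41 on siControl arrays. The siCSRP2 array was lower in all 3 pairs (adjusted p = 0.22). FZD2 passed without siControl 3 (-0.51, adjusted p = 0.0425) and with array weights (0.0311). FZD10 was lower on each siCSRP2 array (2.03 to 2.26) than on each siControl array (2.31 to 2.32) (difference -0.19, adjusted p = 0.323). FZD2 and FZD10 were dim, at percentiles 20.3 and 3.37 of all gene means. Over all genes, 11.5% were higher and 16.2% lower with no overlap of the groups.

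FZD6, a receptor linked to planar polarity, measured 7.28, 7.28 and 7.26 on siCSRP2 arrays, against 7.21, 7.08 and 7.27 on siControl arrays. The difference was 0.09 with a 95% interval of -0.15 to 0.32, which leaves out a change as large as that of FZD1. FZD7, itself a target of Wnt signalling in some tissues, measured 4.95, 5.43 and 5.75 on siCSRP2 arrays, against 5.18, 5.15 and 5.62 on siControl arrays, and array 3 was the highest in both groups (difference 0.06, adjusted p = 0.886). FZD8 measured 4.82, 4.97 and 4.77 on siCSRP2 arrays, against 4.65, 4.82 and 5.53 on siControl arrays, where siControl 3 stood apart (difference -0.15, adjusted p = 0.711). FZD3 and FZD9 lay between 2.22 and 3.07 on all arrays, with differences of 0.02 and 0.07.

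**Figure D2:**
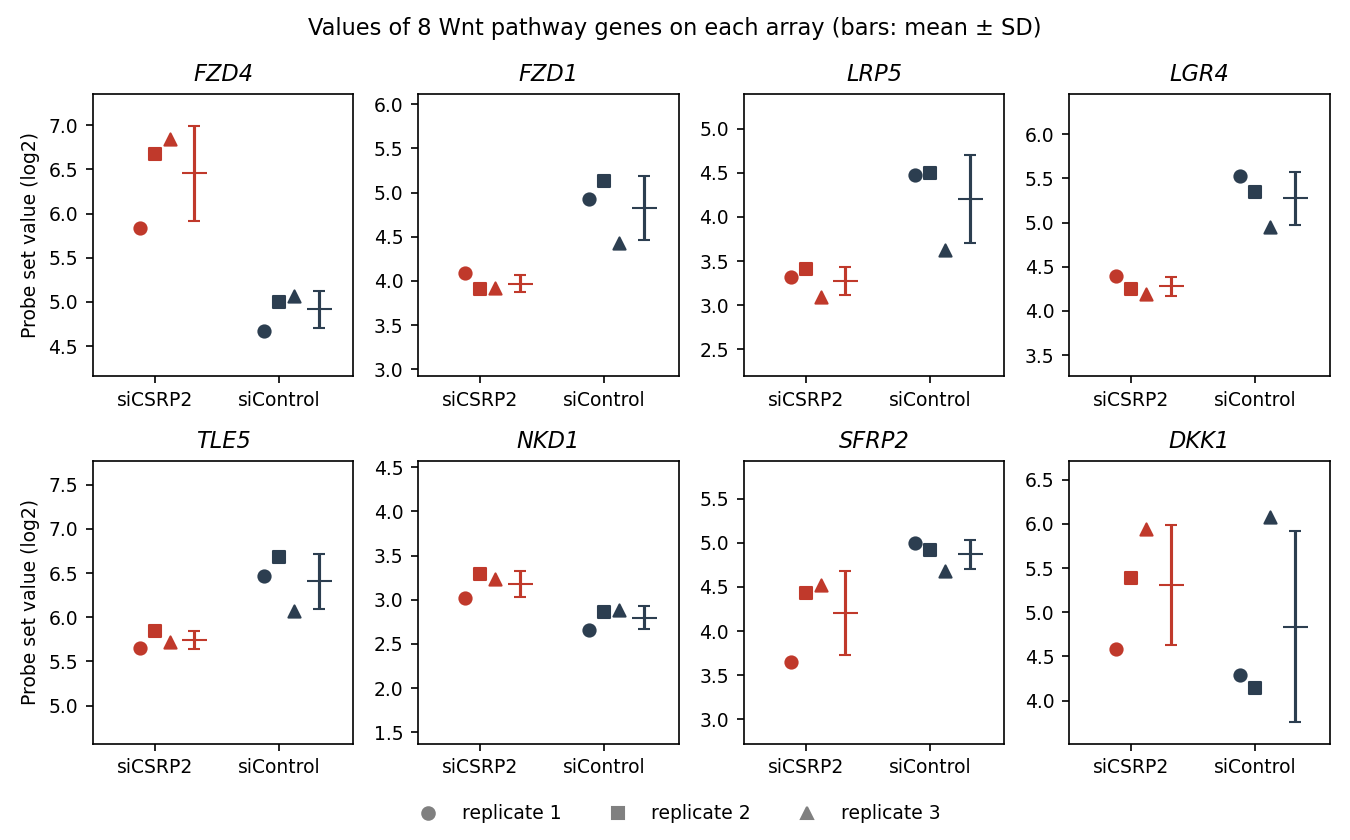
Probe set values on the log2 scale (vertical axes, each spanning 3.2 units) for 8 genes, with siCSRP2 arrays in red at the left and siControl arrays in dark blue at the right of each panel. Symbols give the replicate number, and bars the mean ± SD of 3 arrays. The groups do not overlap for FZD4, FZD1, LRP5, LGR4, TLE5, NKD1 and SFRP2 and overlap for DKK1.

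Of the co-receptors LRP5 and LRP6, only LRP5 passed the test. LRP5, which pairs with Frizzled receptors for Wnts and with FZD4 for Norrin, measured 3.32, 3.41 and 3.09 on siCSRP2 arrays, against 4.48, 4.50 and 3.63 on siControl arrays. The groups did not overlap, and siControl 3 stood well below the other controls. The difference was -0.93 (SE 0.23, adjusted p = 0.0449), and -1.21 without siControl 3 (adjusted p = 0.00081). The fall did not pass when any other array was left out (adjusted p from 0.0828 to 0.183), nor after cyclic loess (0.0566). Its paralog LRP6 measured 4.37, 4.84 and 4.71 on siCSRP2 arrays, against 4.56, 5.09 and 4.62 on siControl arrays. These groups overlapped (difference -0.12, 95% interval -0.52 to 0.29, adjusted p = 0.731), and the sign turned after quantile normalization (0.0522). Whether the change of LRP5 differs from that of LRP6 was not tested.

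KREMEN1, a receptor through which DKK proteins remove LRP6 from the surface, measured 2.78, 2.93 and 3.18 on siCSRP2 arrays, against 3.20, 3.50 and 3.17 on siControl arrays. The groups overlapped on array 3 (difference -0.33, adjusted p = 0.205). KREMEN2 had a difference of 0.12 (adjusted p = 0.615). The ligand WNT2 measured 2.55, 2.70 and 2.61 on siCSRP2 arrays, against 2.60, 2.43 and 2.47 on siControl arrays. It lay below the median of all gene means (2.99) and did not pass (difference 0.12, adjusted p = 0.537).

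LGR4 was lower on every siCSRP2 array. It measured 4.40, 4.24 and 4.19 on siCSRP2 arrays, against 5.53, 5.34 and 4.94 on siControl arrays. The groups were well apart, with siControl 3 the lowest control. The difference was -0.996 (SE 0.16, 95% interval -1.36 to -0.64, adjusted p = 0.0122) and was -1.13, -1.10 and -0.75 in pairs 1, 2 and 3. With 1 array left out it lay between -1.16 and -0.87. It did not pass without siCSRP2 2 (adjusted p = 0.0591), siCSRP2 3 (0.0547), siControl 1 (0.053) or siControl 2 (0.0737).

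None of the other 8 genes of the R-spondin branch passed in limma, nor did any have an unadjusted p under 0.05. LGR5, a stem cell marker of the gut and a Wnt target, measured 2.16 to 2.49 on siCSRP2 arrays, against 2.22 to 2.45 on siControl arrays, and LGR6 measured 2.13 to 2.90, against 2.28 to 2.74. Both sat under the all-gene median level of 2.99, with differences of -0.04 and 0.09. The R-spondins RSPO1, RSPO2, RSPO3 and RSPO4, the secreted ligands of the LGR receptors, had differences of 0.26, 0.14, 0.11 and 0.06. RSPO1 measured 3.81, 3.45 and 3.62 on siCSRP2 arrays, against 3.26, 3.27 and 3.56 on siControl arrays, with overlap. The ubiquitin ligase RNF43 measured 2.98, 2.96 and 2.62 on siCSRP2 arrays, against 3.20, 3.27 and 2.74 on siControl arrays. It was lower in all 3 pairs and array 3 was the lowest in both groups (difference -0.22, adjusted p = 0.482). ZNRF3 had a difference of -0.19 (adjusted p = 0.446).

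Among the 9 secreted antagonists none passed limma's adjusted threshold, and 3 had an unadjusted p under 0.05, beside 23.7% of all genes. SFRP2, a secreted Frizzled-related protein that binds Wnts, measured 3.65, 4.43 and 4.52 on siCSRP2 arrays, against 5.0, 4.92 and 4.68 on siControl arrays. The groups did not overlap, and siCSRP2 1 lay furthest from the controls. The difference was -0.67 (SE 0.22, adjusted p = 0.106) and was -0.39 without siCSRP2 1. It passed with array weights (adjusted p = 0.0362). DKK3, a divergent Dickkopf protein, measured 3.46, 3.47 and 3.25 on siCSRP2 arrays, against 3.95, 3.59 and 3.84 on siControl arrays, again with no overlap (difference -0.40, adjusted p = 0.104, and 0.0491 after median centring). SFRP4 measured 2.93, 3.06 and 2.98 on siCSRP2 arrays, against 2.86, 2.64 and 2.70 on siControl arrays (difference 0.26, adjusted p = 0.194).

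DKK1, which blocks LRP5 and LRP6 and is induced by Wnt signalling, varied most between arrays of 1 group. It measured 4.59, 5.39 and 5.94 on siCSRP2 arrays, against 4.29, 4.14 and 6.08 on siControl arrays. siControl 3 was the highest of all 6 arrays and array 3 was the highest within each group, so the groups overlapped (difference 0.47, SE 0.51, adjusted p = 0.621). Within pairs the differences were 0.30, 1.25 and -0.14. Without siControl 3 the difference was 1.09 and passed (adjusted p = 0.0423). It was 0.83 without siCSRP2 1, 0.15 without siCSRP2 3, 0.20 without siControl 1 and 0.12 without siControl 2, none of which passed. DKK2, DKK4, SFRP1, SFRP5 and WIF1 lay between 2.03 and 3.36 on all arrays, with differences from -0.14 (SFRP1) to 0.18 (SFRP5).

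**Figure D3:**
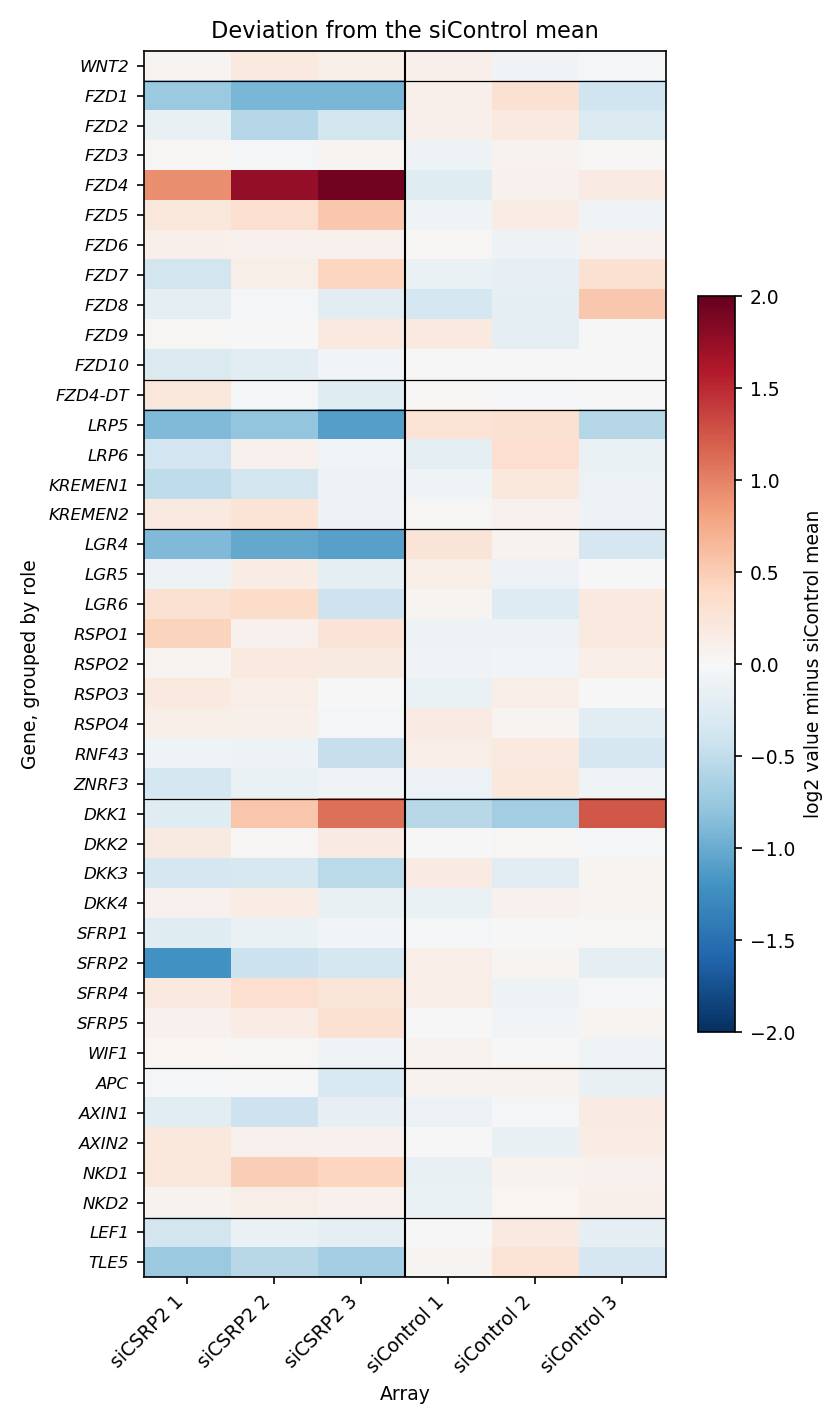
Log2 value on each array minus the mean of the siControl arrays, for the 41 Wnt pathway genes (rows, grouped by role), with siCSRP2 arrays at the left and siControl arrays at the right. FZD4 is deep red on all siCSRP2 arrays, FZD1, LRP5, LGR4 and TLE5 are blue there, and DKK1 is high on siControl 3.

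None of the 5 cytoplasmic members passed in limma, and 1 (NKD1) had an unadjusted p under 0.05. APC and AXIN1, scaffolds of the complex that destroys beta-catenin, had differences of -0.11 (adjusted p = 0.659) and -0.27 (adjusted p = 0.239). AXIN1 measured 3.17, 2.97 and 3.21 on siCSRP2 arrays, against 3.26, 3.34 and 3.55 on siControl arrays, with no overlap. AXIN2, a widely used readout of beta-catenin activity, measured 3.35, 3.22 and 3.23 on siCSRP2 arrays, against 3.14, 2.99 and 3.28 on siControl arrays. Its groups overlapped, and the difference was 0.13 (95% interval -0.14 to 0.39, adjusted p = 0.548).

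NKD1, an inhibitor that binds Dishevelled and is itself a Wnt target, measured 3.02, 3.29 and 3.23 on siCSRP2 arrays, against 2.65, 2.86 and 2.88 on siControl arrays. All siCSRP2 arrays were above all controls, and the paired differences were 0.36, 0.43 and 0.35. The difference of 0.38 (SE 0.12) was short of the threshold (adjusted p = 0.0983) but passed once replicate number entered the fit as a block (0.0448). That call was lost when the block followed quantile normalization (limma adjusted p = 0.0787) or cyclic loess (0.0904). Without the block NKD1 passed with array weights (0.0248). With the block 2.67% of all genes rose and 13.1% fell, and of the Wnt genes 2 rose and 4 fell. NKD2 had a difference of 0.10 (adjusted p = 0.631). Of the 9 measured members that are known targets of the pathway (AXIN2, LEF1, DKK1, NKD1, NKD2, RNF43, ZNRF3, LGR5 and FZD7), none passed in limma, NKD1 alone had an unadjusted p under 0.05, and the median difference was 0.06, beside 0.02 over all genes.

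The nuclear members were LEF1 and TLE5. LEF1, a factor that brings beta-catenin to DNA, measured 2.42, 2.66 and 2.59 on siCSRP2 arrays, against 2.79, 2.96 and 2.61 on siControl arrays. The groups overlapped, and it did not pass (difference -0.23, adjusted p = 0.315). TLE5, a short Groucho family protein that lacks part of the repressor domains of its relatives, measured 5.66, 5.85 and 5.72 on siCSRP2 arrays, against 6.47, 6.68 and 6.07 on siControl arrays. The groups did not overlap, and siControl 3 was again the control nearest to the siCSRP2 arrays. The difference was -0.66 (SE 0.16, adjusted p = 0.0439), and -0.83 without siControl 3 (adjusted p = 0.0031). It did not pass with any other array left out (adjusted p from 0.0937 to 0.167), after quantile normalization (0.0865) or cyclic loess (0.0812), or with a trended, robust variance (0.0566).

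**Figure D4:**
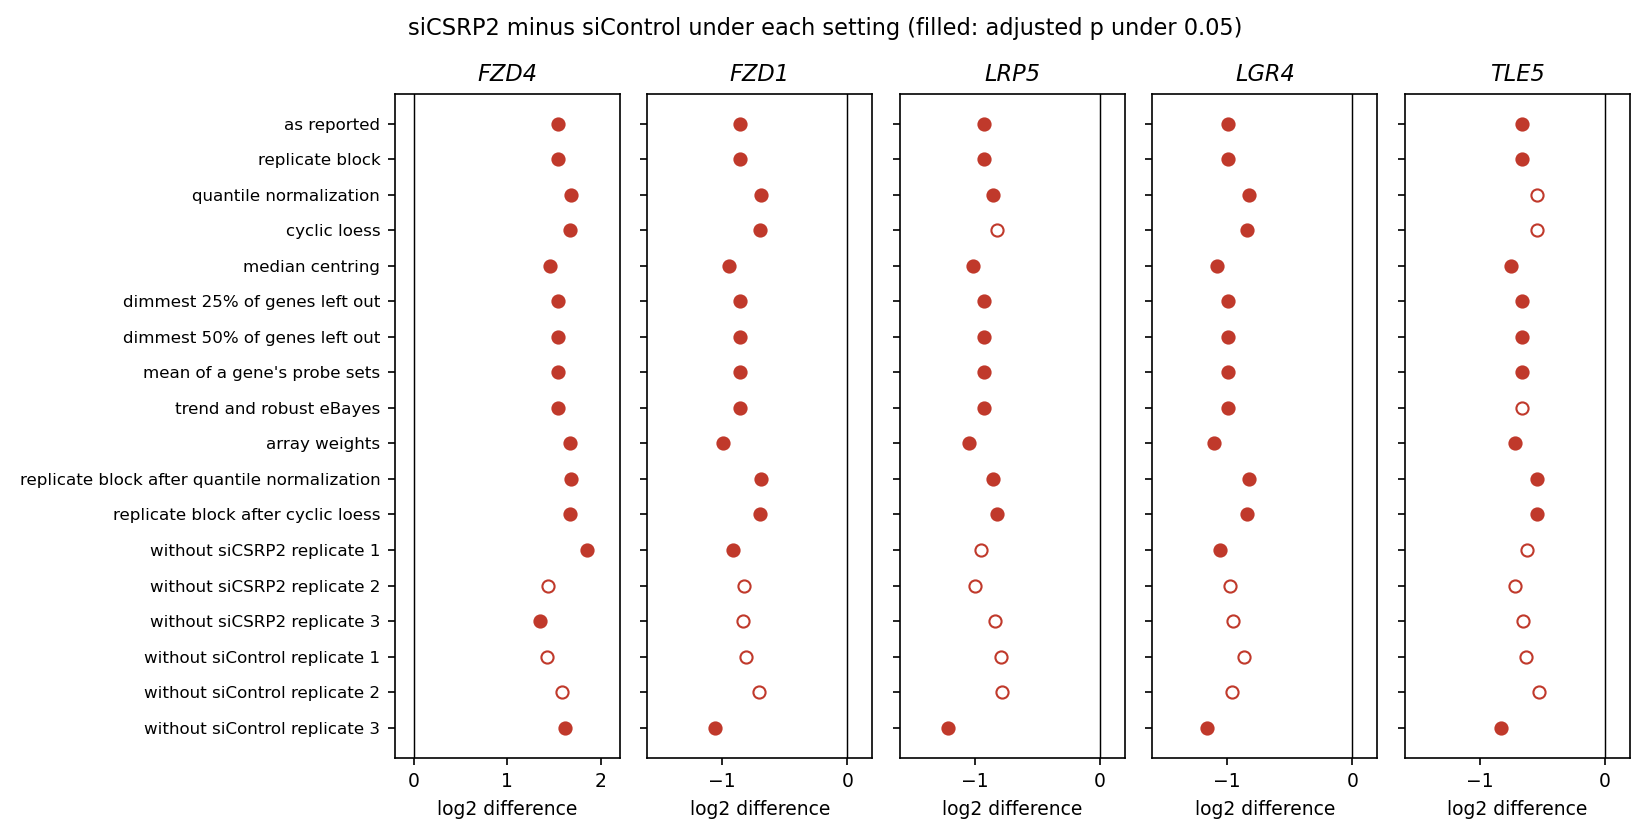
Difference of siCSRP2 minus siControl on the log2 scale (horizontal axes) for the 5 Wnt pathway genes that passed the test, under the reported fit and 17 other settings (rows). Filled points passed the adjusted threshold. The signs hold in every fit shown, while the calls are lost in several fits that leave 1 array out, and hold for all 5 genes without siControl 3.

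Other genes of the pathway were read from lists of 102 genes, of which 74 had a value. In siCSRP2 none of the 74 rose in limma (5 were higher at an unadjusted p under 0.05), 11 fell and 63 did not pass. The 11 falls are 14.9% of the 74, beside 6.54% of all genes, and the median difference was -0.04. Of the 74, 44 lay above the median of all gene means. With the dimmest 50% of genes left out, 25% of the listed genes still tested fell, beside 15.3% of all genes. The lists were chosen with earlier results of these data known, so these shares are no independent comparison. With the block 3 of the 74 rose (4.05%, beside 2.67% of all genes) and 14 fell (18.9%, beside 13.1%). The falls numbered 10 without siCSRP2 1 (4.95% of all genes fell in that fit), 4 without siCSRP2 2 (1.22%) and 6 without siCSRP2 3 (1.74%). They numbered 3 without siControl 1 (1.0%), 2 without siControl 2 (0.578%) and 12 without siControl 3 (14.7%).

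The alternative Wnt receptors held the largest fall. ROR1, a receptor tyrosine kinase that binds WNT5A, measured 4.54, 4.11 and 4.09 on siCSRP2 arrays, against 6.19, 6.30 and 5.71 on siControl arrays. It was 3.52-fold lower (difference -1.82, SE 0.18, adjusted p = 0.00313) and passed in each of the 6 fits that left 1 array out. Of the 13 measured genes of this list 3 fell (23.1%, beside 6.54% of all genes) and none rose. At an unadjusted p under 0.05, none was higher and 4 were lower, beside 6.32% and 17.4% of all genes. The other falls were PTK7, a pseudokinase co-receptor (-0.50, adjusted p = 0.0382), and the planar polarity gene PRICKLE2 (-0.93, adjusted p = 0.00992). PRICKLE2 did not pass as the mean of its 2 probe sets (-0.39, adjusted p = 0.09), or without siControl 1 (0.053) or siControl 2 (0.0631). PTK7 passed only without siCSRP2 1 (0.0443) or siControl 3 (0.0301) among the fits that left 1 array out, and was lost with a trended, robust variance (0.0523). PRICKLE1 fell with the replicate block (-0.55, adjusted p = 0.021, and 0.0829 without it).

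Of 13 measured genes for Wnt secretion and secreted modulators, 2 fell (15.4%, beside 6.54% of all genes) and none rose. At an unadjusted p under 0.05, none was higher and 3 were lower, beside 6.32% and 17.4% of all genes. WLS, the carrier that takes Wnts to the cell surface, measured 5.72, 5.83 and 5.80 on siCSRP2 arrays, against 6.37, 6.33 and 6.08 on siControl arrays (-0.48, adjusted p = 0.0443). That call was lost after quantile normalization (adjusted p = 0.111) or cyclic loess (0.112), with the block added to either (0.0775 and 0.084) and with a trended, robust variance (0.102). Of the fits that left 1 array out, it held only without siControl 3 (0.0105). TPBG, a membrane glycoprotein that dampens canonical Wnt signalling, measured 7.12, 7.24 and 7.64 on siCSRP2 arrays, against 8.23, 8.30 and 8.65 on siControl arrays (-1.06, adjusted p = 0.0125). It did not pass without siCSRP2 2 (0.0619) or siControl 2 (0.0632). The glypican GPC6 fell with the block (-0.77, adjusted p = 0.046, and 0.0829 without it). Its differences within pairs were -1.40, -0.79 and -0.11. The call was lost when the block followed quantile normalization (limma adjusted p = 0.117) or cyclic loess (0.0956). Without the block GPC6 passed with array weights (0.0146) and without siCSRP2 3 (0.035).

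Neither gene listed as Norrin or a partner of FZD4 passed. NDP, which encodes Norrin, measured 2.52, 2.54 and 2.36 on siCSRP2 arrays, against 2.51, 2.42 and 2.43 on siControl arrays. TSPAN12 measured 2.49, 2.48 and 2.34 on siCSRP2 arrays, against 2.43, 2.22 and 2.42 on siControl arrays. The groups overlapped for both (differences 0.02 and 0.08, adjusted p = 0.928 and 0.7), and all these values lie below the median of all gene means.

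Of 13 measured genes of beta-catenin turnover, DIXDC1, a Dishevelled-binding protein, fell (-0.71, adjusted p = 0.0244) and the other 12 did not pass. That is 7.69% of the list, beside 6.54% of all genes. DIXDC1 passed only without siCSRP2 1 (0.0352) or siControl 3 (0.00615) among the fits that left 1 array out. Of 15 nuclear partners 2 fell (13.3%, beside 6.54% of all genes). They were CHD8, a chromatin remodeller that restrains beta-catenin (-0.84, adjusted p = 0.0231), and TBL1X, a corepressor exchange factor (-0.65, adjusted p = 0.0185). CHD8 held only without siControl 3 (0.00168) when 1 array was left out, and TBL1X was lost without siCSRP2 3 (0.0704), siControl 1 (0.0588) or siControl 2 (0.0916). With the block the coactivator EP300 (0.60, adjusted p = 0.0105) and the kinase HIPK2 (0.39, adjusted p = 0.0411) rose and CBY1, a beta-catenin antagonist, fell (-0.48, adjusted p = 0.039).

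Of 18 measured target genes of beta-catenin outside the set, 3 fell (16.7%, beside 6.54% of all genes) and none rose. At an unadjusted p under 0.05, 4 were higher and 6 lower, beside 6.32% and 17.4% of all genes. BIRC5, which encodes the mitotic protein survivin, measured 3.59, 3.81 and 3.55 on siCSRP2 arrays, against 4.66, 4.79 and 4.51 on siControl arrays (-1.0, adjusted p = 0.00644), and passed in each of the 6 fits that left 1 array out. The secreted growth factor BMP4 (-1.22, adjusted p = 0.0144) and the transcription factor SNAI2 (-1.21, adjusted p = 0.0394) also fell. BMP4 was lost without siCSRP2 2 (0.062), siControl 1 (0.0596) or siControl 2 (0.0777), and SNAI2 held only without siCSRP2 1 (0.0362) or siControl 3 (0.00474) when 1 array was left out. SNAI2 was also lost after quantile normalization (0.064) or cyclic loess (0.0603). MYC measured 5.87, 5.88 and 5.74 on siCSRP2 arrays, against 4.97, 5.09 and 5.80 on siControl arrays, so that siControl 3 lay with the siCSRP2 arrays (0.54, adjusted p = 0.147, and 0.00284 without siControl 3). CD44, a surface glycoprotein, did not pass (-0.32, adjusted p = 0.137), and JUN rose with the block (0.64, adjusted p = 0.0241, and 0.173 without it). These genes answer to other pathways too. VIM, AXL and FN1, 3 of 5 measured mesenchymal markers, fell in the same arrays, beside 6.54% of all genes. The summed list values were 34.9 to 36.3 on siCSRP2 and 38.8 to 40.0 on siControl arrays. When 1 array was left out, FN1 held only without siControl 3 (limma adjusted p from 0.062 to 0.137 in the others). VIM was lost without siCSRP2 3 (0.0517), siControl 1 (0.0588) or siControl 2 (0.0813), and AXL without siControl 2 (0.0526). The part of these markers in the results was not tested. CD44 and TWIST1 stand in both that marker list and the target list. Of the 7 measured luminal and epithelial markers none passed in limma without the block, and KRT18 fell with it (-0.74, adjusted p = 0.00746, and 0.0635 without it), its groups not overlapping. KRT18 also fell without siControl 3 (0.00269), and its part in these results was not tested. The list had sums of 24.8 to 27.4 on siCSRP2 and 25.6 to 26.7 on siControl arrays.

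**Figure D5:**
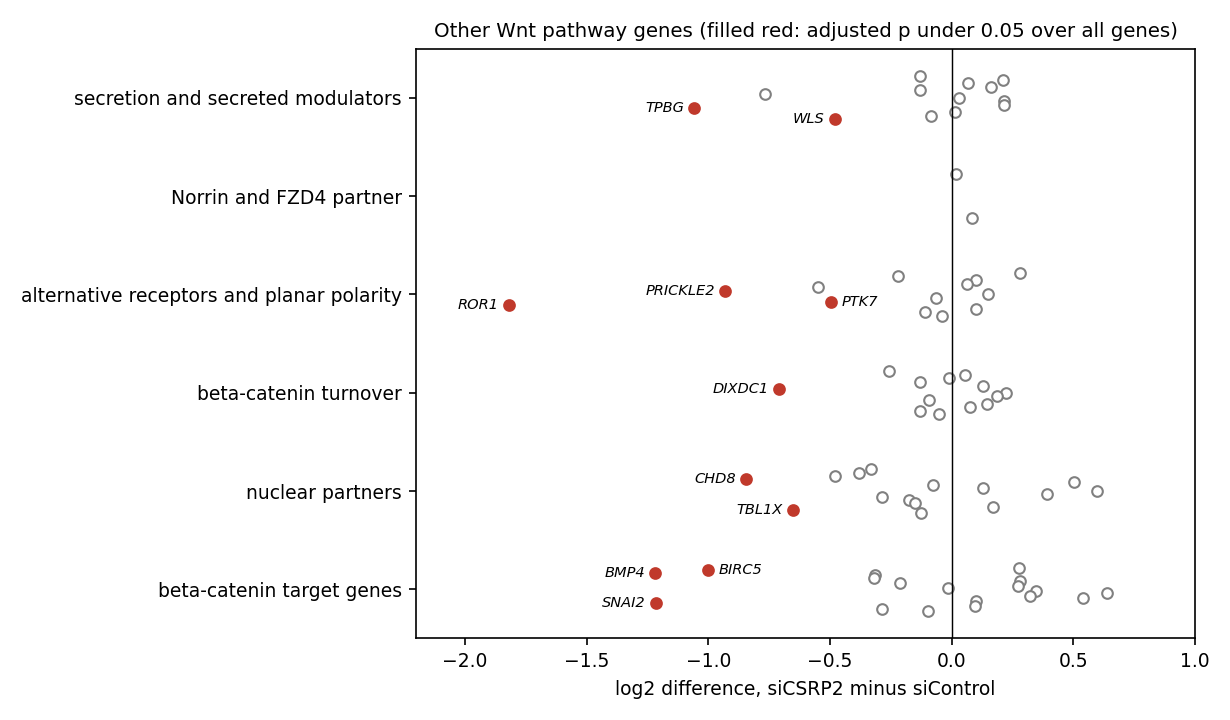
Difference of siCSRP2 minus siControl on the log2 scale (horizontal axis) for 74 other Wnt pathway genes in 6 lists (rows). Each point is a gene, spread vertically only to part the points, and filled red points with names passed the test over all genes. The 11 filled points all lie at the left, from ROR1 at -1.82 to WLS at -0.48.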

How the data were processed

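Total RNA of 6 Hs578T samples was measured on Affymetrix HuGene 2.0 arrays. Titles gave each array's group and replicate number. The authors deposited 1 log2 value per probe set and array; the base was inferred from the values, which run from 1.26 to 13.4. The submitters' processing notes name Partek without a version. For background correction, summarisation, normalization and build, the step used is not given in the sources used here. No detection calls were used, so dim probe sets have no marked limit and their differences can understate a change.

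Of 53617 probe sets, 16098 had a gene symbol in the platform annotation, giving 14884 genes. A gene was read from whichever of its probe sets averaged highest on the 6 arrays, and no filter or further scaling was applied. The comparison used limma 3.58.1 under R 4.3.3 (group as the only term, adjusted p under 0.05 over all genes). The fit was tested on simulated data. The planned background from olfactory receptor genes was not used, because 1 such gene was named.

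Same-numbered arrays deviated together (correlations across genes 0.305, 0.187 and 0.321, against -0.256 to 0.052 for other pairs). Arrays of 1 number were therefore treated as pairs, on the evidence of the data alone. The deviations were taken from each group's own mean, so positive same-number correlations push the others down, and the latter are no separate baseline. The reported fit and the fits that left 1 array out did not use the pairing by replicate number. The fit with it as a block was an alternative, beside scaling, dim-gene filters, probe set choice, variance model, array weights and leaving out each array.

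The members and lists were chosen with earlier results of these data known. Genes named in full are FZD4, AXIN2, members past the threshold with or without the block, members at least 0.5 apart without overlap, the brightest of each role, other pathway genes past the threshold and the next 4 by p. Further members and genes passing only with the block were named after their values were seen. Motif letters were likewise chosen after the results were known.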

Additional observations from a re-analysis of the deposited data

How the results depend on the processing

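The signs of FZD4, FZD1, LRP5, LGR4 and TLE5 held in all 17 alternative fits, while their calls changed with the array left out and, for LRP5 and TLE5, with the setting used on all 6 arrays. Over the fits that left 1 array out, the Wnt genes that rose numbered 0 to 2 and those that fell 0 to 5, against 1 and 4 as reported. No Wnt gene passed without siCSRP2 2, siControl 1 or siControl 2, when 194, 157 and 91 of all genes passed, against 1093. Of the other pathway genes 0 to 2 rose and 2 to 12 fell in these fits, against 0 and 11. Over all genes 0.0336% to 2.87% rose and 0.578% to 14.7% fell in the fits that left 1 array out. FZD4, LGR4, LRP5, FZD1 and TLE5 passed with the replicate block too (limma adjusted p = 0.00084, 0.00231, 0.00525, 0.0075 and 0.0128). With the replicate block 2 Wnt genes rose (NKD1 added) and 3 other pathway genes rose, and 2348 of all genes passed. These are 4.88% and 4.05%, beside 2.67% of all genes that rose. With array weights the same counts were 2 and 3, beside 4.01% of all genes that rose, and 2924 of all genes passed. After cyclic loess 2 Wnt genes fell (4.88%, beside 4.62% of all genes). With the block after quantile normalization 3 other pathway genes rose (4.05%, beside 3.52% of all genes). With the block after cyclic loess 5 did (6.76%, beside 3.57%). With the block the named genes NKD1, PRICKLE1, GPC6, EP300, CBY1, HIPK2, JUN and KRT18 also passed, and no other named gene changed its call. NKD1 and GPC6 did not pass with the block after quantile normalization or cyclic loess. The differences that turned sign were small and did not pass: LRP6 was 0.0522 after quantile normalization and 0.0389 after cyclic loess, with or without the block, and reached 0.0484 at most with 1 array left out (lowest -0.22). APC was 0.0278 and 0.0213 under the same scalings, with or without the block. FZD4-DT ran from -0.13 to 0.10 with 1 array left out. The cause was not tested. KRT18 also passed after median centring, with array weights and once the dimmest 50% of genes were dropped. The median of the Wnt genes was -0.07 after median centring, as it was over all genes (-0.07). It was -0.13 over the 22 members left when the dimmest 50% of genes were removed. Of all genes in that last fit 2.0% rose and 15.3% fell, and their median is not given here. No background level was measured, so it was not tested how many of the 19 members below the median of all gene means were near it.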

Other observations

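The 2 antisense transcripts that the symbol rule left out were dim. FZD10-AS1 measured 2.72, 2.58 and 2.56 on siCSRP2 arrays, against 2.57, 2.54 and 2.78 on siControl arrays (difference -0.01, limma adjusted p = 0.98). ZNRF3-AS1 measured 2.92, 3.16 and 2.71 on siCSRP2 arrays, against 2.75, 2.82 and 2.79 on siControl arrays (difference 0.14, adjusted p = 0.55). Both groups overlapped for each.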
